A study of Mus musculus with 6 samples.

Results

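The genes Psrc1, Fam212b, Rrm2b, Ddb2, Polk, Phlda3, Eda2r, Ei24, Ercc5 and Xpc were examined in mouse liver tumour cell lines that carried an edit aimed at either Kdm6a or p53. These 10 of the 53465 genes in the count table were taken by name, as genes linked to p53, and were selected on their levels in earlier results of the same comparison between these lines. Those levels are therefore given as a description, without a test.

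RNA was sequenced from 3 Myc_Utx and 3 Myc_p53 cell lines, each grown from a liver tumour of a different mouse. Tumours had been raised in adult female C57BL/6 mice by hydrodynamic tail-vein injection of a Sleeping Beauty transposon that drives MYC from the EF1a promoter, a plasmid for the SB13 transposase under the CMV promoter, and the pX330 plasmid for Cas9 and a single guide RNA. In Myc_Utx lines (2A, 2B and 2D) the guide targeted Kdm6a, also called Utx, which encodes a histone H3K27 demethylase. In Myc_p53 lines (1, 2 and 3), labelled as the control, it targeted the p53 gene. All 6 lines thus come from tumours raised with the MYC transposon and transient Cas9, and the 2 groups differ in both edits at once. No line with an unedited Kdm6a and an unedited p53 gene was analysed here, so effects of Kdm6a loss and of p53 loss cannot be told apart in any value below. Tumour cells were grown on collagen in complete DMEM and passaged until no other cell type was visible, and no cloning of single cells is described.

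p53 is a transcription factor that is stabilised by DNA damage and other stress, binds paired half-sites near its target genes and raises their transcription. Its targets include genes that arrest the cell cycle, start apoptosis, repair DNA and supply nucleotides for repair, and in the liver it restrains the outgrowth of damaged hepatocytes. Some of the 10 genes fall into these roles and others are described by their proteins. Xpc, Ddb2 and Ercc5 act in nucleotide excision repair, Polk copies past damaged bases, Rrm2b makes deoxynucleotides, Phlda3, Eda2r and Fam212b act in signalling, Ei24 sits in the endoplasmic reticulum membrane, and Psrc1 binds spindle microtubules.

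The count table holds raw counts of reads per gene, with 4656103 to 6937497 counts per line. Levels are given as CPM, the counts of a gene scaled to a common library size, with TMM factors, which even out library composition. Positive log2 fold changes stand for more RNA in Myc_Utx lines. A standard error (SE) given with one is approximate, its size divided by the square root of the F statistic of its test. Unless another setting is named, fold changes come from edgeR's quasi-likelihood fit on the 11510 genes that passed a filter on low counts, all 10 genes among them. A gene of that fit is called where the Benjamini-Hochberg adjusted p was under 0.05. Two-sided exact permutation of 3 lines against 3 cannot give a p below 0.1, so none is given for single genes. The transcript of the p53 gene, Trp53, stood at 294, 296 and 276 CPM in Myc_Utx lines and at 32.4, 34.5 and 35.8 CPM in Myc_p53 lines, with a log2 fold change of 3.07 (SE 0.11, adjusted p = 0.000488, edgeR). Kdm6a itself stood at 39.7, 45.7 and 49.0 CPM against 69.5, 64.5 and 42.5 CPM, with overlapping groups and a log2 fold change of -0.39 (SE 0.22, adjusted p = 0.243, edgeR), and counts do not show whether either gene was edited. Of 8 hepatocyte markers 1 passed the filter, and their summed level was 3.12 to 9.18 CPM in Myc_Utx lines and 5.93 to 21.5 CPM in Myc_p53 lines, so the markers that define hepatocytes were close to absent. Of 8 macrophage markers 5 were called lower in Myc_Utx lines, with sums of 2.79 to 5.99 CPM against 39.9 to 108 CPM. Adgre1 and Ptprc fell below the filter, at 0 counts in every Myc_Utx line. In Myc_p53 lines Adgre1 had 5, 5 and 11 counts and Ptprc 1, 2 and 3. Cd68 overlapped between the groups and was not called (adjusted p = 0.300, edgeR). The 6 stellate cell and fibroblast markers summed to 134 to 385 CPM against 17.9 to 628 CPM with none called, Lrat being at 0 in all lines. The 5 endothelial markers all fell below the filter. Of 5 biliary markers 3 were tested and none was called, with sums of 510 to 1441 CPM against 153 to 1462 CPM. Krt19 had 46.7, 4.68 and 28.7 CPM against 330.0, 60.2 and 352 CPM, without overlap (adjusted p = 0.0653, edgeR). Sox9 and Spp1 went the other way with overlapping groups, at log2 fold changes of 0.94 (adjusted p = 0.131, edgeR) and 0.21 (adjusted p = 0.884, edgeR). Krt7 and Epcam fell below the filter with lower means in Myc_Utx lines. Krt7 had 1, 0 and 2 counts against 100, 3 and 459, without overlap in CPM. Epcam overlapped, with means of 0.989 and 2.44 CPM. Spp1 was the largest part of the sum in every line, at 611, 1362 and 449 CPM against 997, 70.8 and 1018 CPM. Fewer cells of a type and less RNA per cell cannot be told apart in these bulk samples, and the part of other cell types in the levels below was not tested.

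The stretches of 250 bases before the start sites of the 4 genes with the largest difference are given as the sequence context of these genes, in the RefSeq tables of build GRCm38.p6. Capitals mark matches, on either strand, to the CCAAT box, to the GC box GGGCGG, to the E-box CACGTG, to TTNGAA, which takes in the CHR element of cell cycle genes, or to the p53 half-site. Psrc1 is chr3:108383554-108383803 on the plus strand, Fam212b, listed by RefSeq as Inka2, is chr3:105704349-105704598 on the plus strand, Phlda3 is chr1:135765835-135766084 on the plus strand, and Eda2r is chrX:97377210-97377459 on the minus strand. All read from 5′ to 3′ and end 1 base before the start site.
Psrc1: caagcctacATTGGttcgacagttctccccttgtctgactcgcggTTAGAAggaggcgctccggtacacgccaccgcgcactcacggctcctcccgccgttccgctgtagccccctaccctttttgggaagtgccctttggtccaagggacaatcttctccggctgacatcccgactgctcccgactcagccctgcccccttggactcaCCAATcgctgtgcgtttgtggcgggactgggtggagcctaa
Fam212b: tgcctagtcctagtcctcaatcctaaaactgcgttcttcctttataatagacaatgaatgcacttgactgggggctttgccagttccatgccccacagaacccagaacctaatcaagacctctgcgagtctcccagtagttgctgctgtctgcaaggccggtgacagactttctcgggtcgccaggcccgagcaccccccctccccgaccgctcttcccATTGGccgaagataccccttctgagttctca
Phlda3: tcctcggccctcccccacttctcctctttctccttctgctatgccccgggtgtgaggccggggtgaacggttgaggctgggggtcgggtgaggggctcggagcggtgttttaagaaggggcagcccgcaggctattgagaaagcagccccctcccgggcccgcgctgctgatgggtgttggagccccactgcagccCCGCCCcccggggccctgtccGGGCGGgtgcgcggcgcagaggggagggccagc
Eda2r: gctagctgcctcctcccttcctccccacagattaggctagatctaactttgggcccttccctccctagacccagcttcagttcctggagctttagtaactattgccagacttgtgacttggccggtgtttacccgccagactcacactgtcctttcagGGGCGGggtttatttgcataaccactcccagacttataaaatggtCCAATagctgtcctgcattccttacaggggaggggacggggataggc

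RefSeq windows of 300 bases, 250 before and 50 after a start site, were matched for 7 of the 10 genes: Psrc1, Fam212b, Polk, Phlda3, Eda2r, Ei24 and Ercc5. A p53 half-site was found in windows of Fam212b, Polk and Ei24, at -81, -231 and -10 bases from the start site. The Fam212b match lies before another start site of this gene and not in the stretch shown, and the Polk match before a start site inside the gene, while the window at its 5′ end held none. The 7 genes have 10 windows, 2 each for Psrc1, Fam212b and Polk, and 3 of the 10 held a half-site, against 8.36% of all 32851 windows in the table. The GC box was in 8 of the 10 windows, of every gene but Ercc5, against 35.7% of all windows. The CCAAT box was in 5 windows, of Psrc1, Fam212b, Eda2r and Ercc5, against 37.4%, and TTNGAA in 3, of Psrc1 and Ercc5, against 40.3%. The E-box was in 1 window, that of Eda2r, against 7.15%. The 2 windows of Psrc1 overlap, at chr3:108383554-108383853 and chr3:108383588-108383887. The GC box, 1 CCAAT box and both TTNGAA matches of this gene lie in both windows and are counted in each. A match describes the letters only.

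Across the 10 genes, 7 had a higher level in all 3 Myc_Utx lines than in any Myc_p53 line, 1 had a lower level in all 3, and for 2 the groups overlapped. Over all genes tested, 21.1% had groups that did not overlap with Myc_Utx higher and 20.9% with Myc_Utx lower, 42.0% in all. The genes with the higher level were Fam212b, Eda2r, Phlda3, Psrc1, Ercc5, Ei24 and Polk, and these 7 were also the ones called higher in the fit on all genes, where 6.99% of genes were called higher. None of the 10 was called lower, against 7.69% of all genes, and Rrm2b, Ddb2 and Xpc were not called. Because the same contrast brought the genes up, nothing is read from these counts. The median log2 fold change of the 10 was 1.56, beside -0.01 over all genes tested. Without Myc_Utx 2A the number called was 1, without 2B it was 2, and without 2D it was 4, while the share of all genes called was 0.0332%, 0.672% and 0.586% in those fits. Without Myc_p53 line 3 the number was 5, with 1.02% of all genes called.

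**Figure D1:**
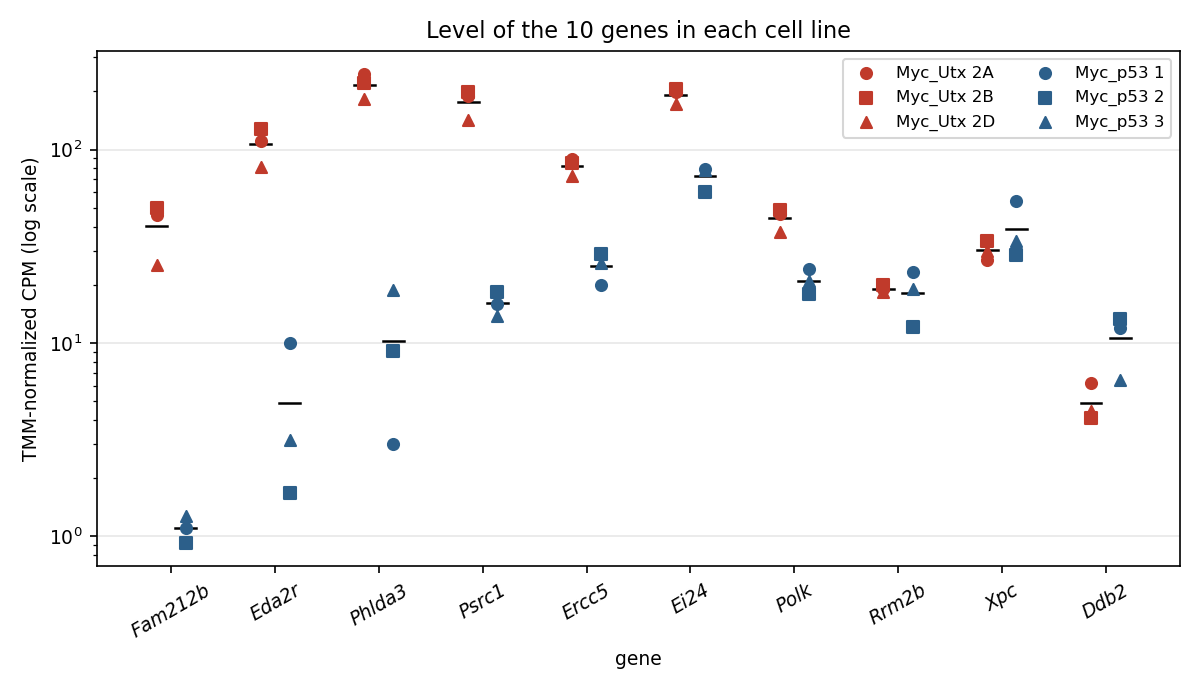
Level of each gene in each cell line, in TMM-normalized CPM on a log axis, with Myc_Utx lines in red, Myc_p53 lines in blue and a black bar at the mean of each group of 3. Fam212b, Eda2r, Phlda3, Psrc1, Ercc5, Ei24 and Polk have all red points above all blue points, Ddb2 has the reverse, and Rrm2b and Xpc overlap.

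Psrc1 encodes a proline- and serine-rich coiled-coil protein that binds spindle microtubules and recruits the depolymerising kinesin Kif2a. Its level was 188, 198 and 142 CPM in Myc_Utx lines 2A, 2B and 2D and 16.0, 18.4 and 13.8 CPM in Myc_p53 lines 1, 2 and 3. Every Myc_Utx line was far above every Myc_p53 line, and the lines within a group lay close together. The means were 176 ± 30.1 CPM and 16.1 ± 2.26 CPM (SD, n = 3), which is 10.96-fold, and the nearest lines of the groups were 7.72-fold apart. On the log2 scale the difference was 3.46 (SE 0.19). With 1 line left out the log2 fold change was 3.35 to 3.61. The gene lies at chr3:108383839-108388231 on the plus strand (GRCm38).

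Among 12 spindle microtubule genes, the proteins that Psrc1 works beside, 11 were tested, 2 were called lower in Myc_Utx lines and none higher, and the median of their log2 fold changes was -0.07. The 2 that fell were Nusap1, which bundles spindle microtubules, from 156 ± 20.5 to 104 ± 12.2 CPM (log2 fold change -0.59, adjusted p = 0.0458, edgeR), and Ckap5, a microtubule polymerase, from 362 ± 41.9 to 259 ± 12.4 CPM (log2 fold change -0.48, adjusted p = 0.0448, edgeR). Kif2a had 94.3 ± 6.21 CPM in Myc_Utx and 105 ± 10.8 CPM in Myc_p53 lines, a log2 fold change of -0.16 that did not pass the test (adjusted p = 0.413, edgeR). Kif2b had no counts. The share of spindle genes called, 2 of 11, stood beside 14.7% of all genes, and without Myc_p53 line 1 only Ckap5 of the 2 was called, while leaving out any other line left neither. Of all genes, at most 1.02% were called without 2A, 2B, 2D or Myc_p53 line 3, and 16.4% without line 2. Of 7 proliferation genes, Birc5 and Plk1 were called higher in Myc_Utx lines and none lower, and their summed level was 2191 to 2522 CPM against 2026 to 2119 CPM. The part of proliferation in the Psrc1 level was not tested.

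Fam212b, now named Inka2, encodes an inhibitor of the kinase Pak4. It had the largest difference of the 10 genes and was the 16th largest among all genes with a higher level in Myc_Utx lines. Its level was 46.1, 49.99 and 25.2 CPM in the Myc_Utx lines and 1.11, 0.927 and 1.28 CPM in the Myc_p53 lines. Each Myc_p53 value rests on 7, 5 and 9 counts, whereas the Myc_Utx values rest on 231, 267 and 113. All Myc_Utx lines lay above all Myc_p53 lines, and 2D was the lowest of its group. The mean levels of 40.4 ± 13.4 and 1.11 ± 0.178 CPM (SD, n = 3) were 36.6-fold apart, the nearest lines 19.6-fold, and the log2 fold change was 5.16 (SE 0.37). The gene lies at chr3:105704599-105720842 on the plus strand, 2679 kb before Psrc1 on the same chromosome.

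Both genes were set beside the tested genes whose lowest coordinate lies within 200 kb of their own. Both had been selected on this same contrast, so their own larger differences are no result of this comparison. None of the 11 neighbours was called by edgeR, beside 14.7% of all genes. An unadjusted p under 0.05 in edgeR was found for 3, beside 4026 of the 11510 genes tested. DESeq2 called 3 lower, beside 11.7% of all genes called in either direction. Those 3 were Celsr2, Sort1 and Atxn7l2, all beside Psrc1 and all with a lower mean level in Myc_Utx lines. Celsr2, a cadherin on the minus strand whose 3′ end lies 7.01 kb after the start of Psrc1, had 20.3, 20.4 and 17.4 CPM in Myc_Utx lines and 270, 8.53 and 156 CPM in Myc_p53 lines. Line 2 of Myc_p53 thus lay below every Myc_Utx line while the other two lay far above, and the log2 fold change was -2.90 (adjusted p = 0.102, edgeR). Sort1, the sorting receptor sortilin, had 5.98, 5.43 and 2.00 CPM against 10.9, 18.2 and 42.6 CPM without overlap (log2 fold change -2.41, adjusted p = 0.0515, edgeR). For Atxn7l2 the log2 fold change was -0.88 (adjusted p = 0.0534, edgeR). Nearer to 0 were Sars at -0.11 and Psma5 at 0.09 beside Psrc1, and Ddx20 at -0.19 and Rap1a at 0.04 beside Fam212b. None of the 11 had a higher level in all Myc_Utx lines than in any Myc_p53 line, beside 21.1% of all genes tested.

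**Figure D2:**
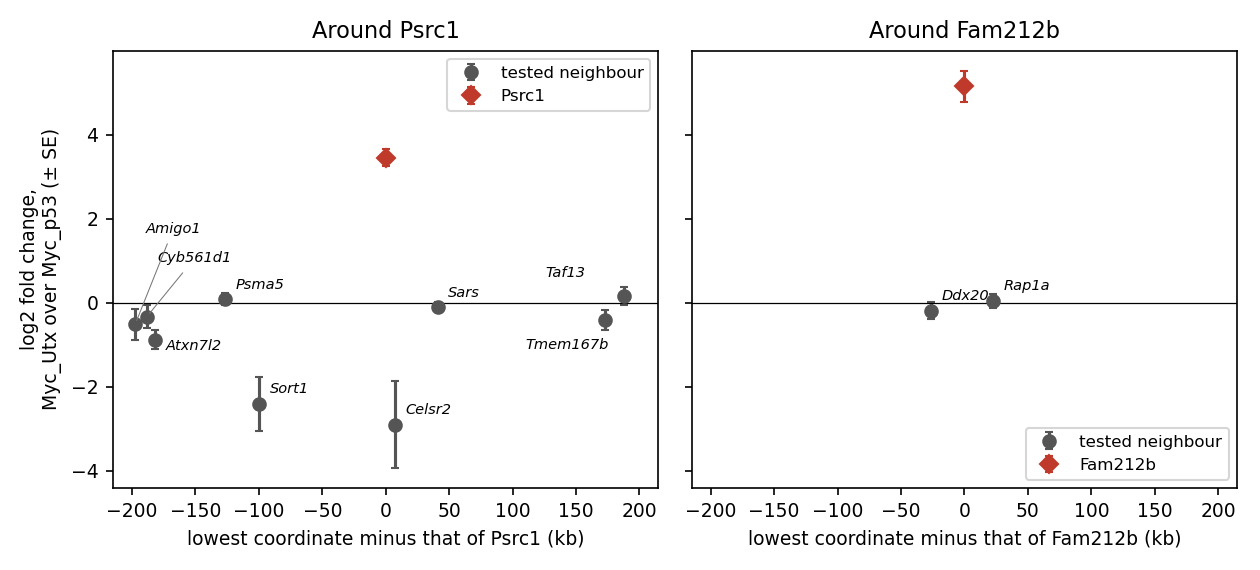
Log2 fold change (Myc_Utx over Myc_p53) of Psrc1 and of Fam212b (red diamonds) and of the tested genes within 200 kb (grey circles), against the distance in kb between the lowest coordinates of the genes on either strand; bars are 1 SE. Psrc1 at 3.46 and Fam212b at 5.16, both selected on this contrast, stand above all 11 neighbours, and Sort1 and Celsr2 lie below -2.

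Phlda3 and Eda2r were the most unequal of the 10 genes between Myc_p53 lines. Phlda3 encodes a small pleckstrin-homology protein that competes with Akt for membrane lipids. Its level was 245, 220 and 182 CPM in Myc_Utx lines and 3.0, 9.08 and 18.8 CPM in Myc_p53 lines. The groups did not overlap, and Myc_p53 line 3 was 6.27-fold above line 1. Means were 216 ± 32.1 and 10.3 ± 7.98 CPM (SD, n = 3), 20.9-fold apart, with a log2 fold change of 4.37 (SE 0.61). Eda2r, the receptor for the A2 form of ectodysplasin and a member of the tumour necrosis factor receptor family, had 111, 128 and 81.1 CPM in Myc_Utx lines and 9.96, 1.67 and 3.14 CPM in Myc_p53 lines. Here Myc_p53 line 1, the lowest for Phlda3, was the highest, 5.97-fold above line 2. The mean levels of Eda2r were 107 ± 23.9 and 4.92 ± 4.42 CPM (SD, n = 3), 21.7-fold apart, and the log2 fold change was 4.43 (SE 0.63). Within Myc_p53 lines the SD of the log2 level was 1.33 for Phlda3 and 1.31 for Eda2r, with nothing added before the log. The median over all genes tested was 0.274, but with 0.5 CPM added, so the measures are not quite alike. Phlda3 lies at chr1:135766119-135769136 on the plus strand and Eda2r at chrX:97333840-97377216 on the minus strand.

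Of 16 genes around PAK, AKT and EDA signalling, 10 were tested, and edgeR called Akt1 and Akt2 higher in Myc_Utx lines and none lower, 20.0% beside 14.7% of all genes, with the median log2 fold change at 0.14. DESeq2 called these 2 and also Pak3 lower. Pak3, a kinase of the PAK family, had 9.37, 27.9 and 4.01 CPM in Myc_Utx lines and 60.1, 99.0 and 29.2 CPM in Myc_p53 lines, without overlap (log2 fold change -2.18, adjusted p = 0.0965, edgeR). Akt2, one of the kinases that Phlda3 restrains, rose from 80.6 ± 1.33 to 117 ± 3.23 CPM (log2 fold change 0.54, adjusted p = 0.0227, edgeR) and Akt1 from 314 ± 18.3 to 438 ± 11.1 CPM (log2 fold change 0.48, adjusted p = 0.0274, edgeR). Both calls were lost without Myc_Utx 2A, 2B or 2D or without Myc_p53 line 3, and that of Akt1 also without Myc_p53 line 1. The share of all genes called was 9.41% without line 1 and at most 1.02% in the other fits named. Pak4, the kinase that Fam212b inhibits, had 63.3 ± 3.01 and 50.01 ± 11.2 CPM (log2 fold change 0.34, adjusted p = 0.254, edgeR). Among the relatives of Phlda3 and Fam212b, Phlda1 had 20.0 ± 11.7 and 15.5 ± 9.39 CPM with a log2 fold change of 0.37 (adjusted p = 0.705, edgeR), Phlda2 was too low to test at 1.74 and 0.526 CPM on average, and Fam212a, the nearest relative of Fam212b, had 1 to 8 counts in Myc_Utx and 1 to 3 in Myc_p53 lines. The ligand gene Eda was also below the filter, with 1.25 ± 0.709 CPM in Myc_Utx and 1.92 ± 1.48 CPM in Myc_p53 lines, and the related receptor gene Edar had no counts in any Myc_Utx line and at most 5 in a Myc_p53 line.

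Ei24, a membrane protein of the endoplasmic reticulum with a role in autophagy, had 199, 205 and 171 CPM in Myc_Utx lines and 79.3, 60.1 and 78.6 CPM in Myc_p53 lines. All Myc_Utx lines were higher, with means of 192 ± 18.1 and 72.7 ± 10.9 CPM (SD, n = 3), 2.64-fold apart, and a log2 fold change of 1.40 (SE 0.15). The gene lies at chr9:36779159-36797393 on the minus strand and shares 3519 bases with the antisense gene Gm26787, which had at most 1 count in any line.

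The 3 nucleotide excision repair genes among the 10 had unlike patterns. Ercc5, the endonuclease that cuts on the 3′ side of a lesion, had 89.8, 85.2 and 72.6 CPM in Myc_Utx lines and 19.9, 28.9 and 25.8 CPM in Myc_p53 lines. Its groups were well apart, with means of 82.5 ± 8.89 and 24.9 ± 4.57 CPM (SD, n = 3), 3.32-fold, and a log2 fold change of 1.73 (SE 0.19). Xpc, which recognises lesions across the genome together with Rad23b, had 26.7, 33.5 and 30.1 CPM against 54.2, 28.5 and 33.7 CPM. The groups of Xpc overlapped, Myc_p53 line 1 standing above the other 5 lines, and the log2 fold change was -0.37 (SE 0.27). Ddb2, the lesion-binding partner of Ddb1, had 6.18, 4.12 and 4.45 CPM in Myc_Utx lines and 12.0, 13.4 and 6.42 CPM in Myc_p53 lines. Every Myc_p53 line was above every Myc_Utx line, but Myc_p53 line 3 only just above 2A, and the means of 4.92 ± 1.11 and 10.6 ± 3.68 CPM (SD, n = 3) gave a log2 fold change of -1.10 (SE 0.37). Ddb2 overlaps Acp2 on the opposite strand by 2527 bases. Acp2 had 108 to 165 counts in Myc_Utx and 226 to 273 counts in Myc_p53 lines, and since the strand setting of the counting is not given in the sources used here, reads of the shared bases cannot be told apart. Ercc5 lies at chr1:44147744-44181260 on the plus strand, Xpc at chr6:91489305-91515888 on the minus strand and Ddb2 at chr2:91211572-91236982 on the minus strand.

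Of 28 other nucleotide excision repair genes, all tested, edgeR called 2 higher and 1 lower in Myc_Utx lines, 10.7% beside 14.7% of all genes, and the median log2 fold change was 0.20. Rad23b, the partner of Xpc, rose from 392 ± 22.6 to 542 ± 55.1 CPM (log2 fold change 0.47, adjusted p = 0.0457, edgeR), and the DNA ligase Lig1 from 116 ± 8.55 to 172 ± 17.3 CPM (log2 fold change 0.57, adjusted p = 0.0319, edgeR). Ddb1, the partner of Ddb2, fell from 1637 ± 239.5 to 1104 ± 40.9 CPM (log2 fold change -0.57, adjusted p = 0.0411, edgeR). The calls of Rad23b, Lig1 and Ddb1 were all lost without 2A, 2B, 2D or Myc_p53 line 3, while Ddb1 alone was still called without Myc_p53 line 1 and Rad23b alone without line 2. At most 1.02% of all genes were called in the former fits, and 9.41% and 16.4% in the latter.

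Polk encodes DNA polymerase kappa, which copies past bulky lesions on guanine. It had 46.7, 48.9 and 37.4 CPM in Myc_Utx lines and 24.2, 18.0 and 20.8 CPM in Myc_p53 lines, without overlap. The means were 44.3 ± 6.08 and 20.99 ± 3.10 CPM (SD, n = 3), 2.11-fold apart, and the log2 fold change was 1.08 (SE 0.19), the smallest of the 7 genes with a higher level. The gene lies at chr13:96480690-96542579 on the minus strand. Among 10 other translesion genes, 9 were tested and none was called by edgeR in either direction, beside 14.7% of all genes. An unadjusted p under 0.05 in edgeR was found for 4, beside 4026 of the 11510 genes tested. DESeq2, which tested all 10, called Rev1 and Pcna higher and Rev3l lower, beside 11.7% of all genes called in either direction. Polh, the polymerase that copies past ultraviolet lesions and is itself a known p53 target, had 57.4 ± 4.53 and 49.9 ± 9.88 CPM (log2 fold change 0.20, adjusted p = 0.457, edgeR). The median log2 fold change of the 9 was -0.18.

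Rrm2b is the p53-inducible small subunit of ribonucleotide reductase, used outside S phase. Its level was 19.0, 19.9 and 18.3 CPM in Myc_Utx lines and 23.2, 12.1 and 19.1 CPM in Myc_p53 lines. The Myc_Utx lines all lay within the range of the Myc_p53 lines, and the log2 fold change was 0.07 (SE 0.27), of which the sign turned without Myc_p53 line 2, to -0.15. The gene lies at chr15:37923952-37961318 on the minus strand, where it shares 466 bases with the pseudogene Gm3362 on the same strand, at 5 to 11 counts per line, and 848 bases with the antisense gene AC122291.1. The other subunits of the enzyme did differ. Rrm2, the S-phase small subunit, had 392, 390 and 426 CPM in Myc_Utx lines and 179, 160 and 189 CPM in Myc_p53 lines (log2 fold change 1.19, adjusted p = 0.0103, edgeR), and Rrm1, the large subunit, 444 ± 13.7 CPM against 273 ± 23.9 CPM (log2 fold change 0.70, adjusted p = 0.0171, edgeR). Both rose, with every Myc_Utx line above every Myc_p53 line. Of 12 genes that supply deoxynucleotides, Rrm1 and Rrm2 among them, edgeR called 4 higher, 33.3% beside 6.99% of all genes, and none lower, with a median log2 fold change of 0.55. DESeq2 called 6 higher and also 2 lower, Samhd1, which breaks deoxynucleotides down, and the mitochondrial deoxyguanosine kinase Dguok. In the edgeR fit their log2 fold changes were -0.88 (adjusted p = 0.0762) for Samhd1 and -0.999 (adjusted p = 0.062) for Dguok. The other two that edgeR called higher were Dut, which removes dUTP (log2 fold change 1.25, adjusted p = 0.0241, edgeR), and the nucleoside diphosphate kinase Nme1 (log2 fold change 0.75, adjusted p = 0.0177, edgeR). Without 2A none of the 4 was called, without 2B or 2D only Rrm2, and without Myc_p53 line 3 Rrm1 and Rrm2. Of all genes, at most 1.02% were called in those fits. Rrm2, Dut and Rrm1 are also expressed with proliferation, whose marker sums are given with Psrc1, and the part of proliferation in these levels was not tested.

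**Figure D3:**
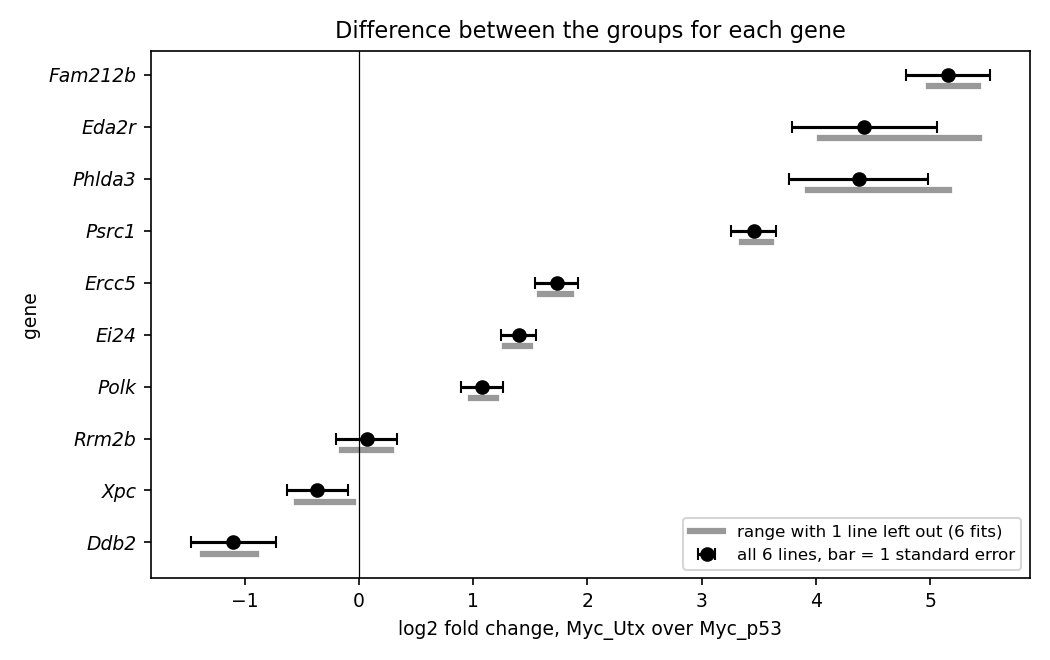
Log2 fold change (Myc_Utx over Myc_p53) of each of the 10 genes from the fit on all 6 lines (black points, bars 1 SE) and the range over the 6 fits that each left out 1 line (grey bars). The estimates run from -1.10 for Ddb2 to 5.16 for Fam212b, and Eda2r and Phlda3 have the widest grey bars.

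To compare levels between genes, CPM was divided by transcript length in kb. In Myc_Utx lines Phlda3 was the most abundant at 138 ± 20.6 CPM per kb, followed by Psrc1 at 52.3 ± 8.96, Ei24 at 39.4 ± 3.72, Eda2r at 18.1 ± 4.06, Ercc5 at 14.1 ± 1.52, Fam212b at 8.45 ± 2.79, Polk at 7.98 ± 1.10, Xpc at 5.48 ± 0.618, Rrm2b at 2.08 ± 0.0872 and Ddb2 at 1.80 ± 0.405 CPM per kb. Neighbours in this order whose lines overlapped were Eda2r and Ercc5, Fam212b and Polk, and Rrm2b and Ddb2. In Myc_p53 lines the order was another, with Ei24 first at 14.9 ± 2.24 CPM per kb, then Xpc at 7.06 ± 2.47, Phlda3 at 6.61 ± 5.12, Psrc1 at 4.77 ± 0.672, Ercc5 at 4.24 ± 0.78, Ddb2 at 3.87 ± 1.34, Polk at 3.78 ± 0.559, Rrm2b at 1.99 ± 0.619, Eda2r at 0.835 ± 0.751 and Fam212b at 0.231 ± 0.0373 CPM per kb. The 6 from Xpc to Polk overlapped from each to the next, as did Rrm2b and Eda2r. All Myc_p53 lines of Ei24 lay above those of Xpc, and all of Fam212b below those of Eda2r.

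Within each group the 3 lines were ranked by their level for each of the 10 genes. Among Myc_Utx lines, 2B was the highest for 7 of the 10 genes and 2A for 3, and 2D was the lowest for 8. Among Myc_p53 lines, line 1 was the highest for 5 genes and line 2 the lowest for 6. These counts share their libraries and are not independent between genes. The same ranks were not counted over all genes, so no trait of these 10 genes is read from them.

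The genes whose pattern over the 6 lines was most like Psrc1 or Fam212b were found by the root mean square distance between centred log2 levels, in log2 units, over all genes tested other than the 10. For Psrc1 these were Ccng1, at 0.213, Trp53 at 0.251 and the olfactory receptor gene Olfr1318 at 0.267. Ccng1, which encodes cyclin G1 and is a p53 target, had 1026, 829 and 543 CPM in Myc_Utx lines and 55.9, 68.6 and 59.9 CPM in Myc_p53 lines, the same order of groups and the same lowest Myc_Utx line as Psrc1. Olfr1318 had 22 to 32 counts in Myc_Utx lines and at most 1 in a Myc_p53 line, so that its distance was set by the 0.5 CPM added before the log and not by a measured pattern. For Fam212b the distances were larger. Ass1, the argininosuccinate synthase of the urea cycle, was nearest at 0.407, with 158, 176 and 57.2 CPM against 2.05, 2.78 and 5.13 CPM, and it too was lowest in 2D among Myc_Utx lines. For Ccng1 and Ass1 such shared ranks of lines are favoured by the choice by distance and are no separate result. The immune co-stimulatory ligand Cd80 followed at 0.441 and the membrane protein gene Ano3 at 0.51, both at or under 1 count in every Myc_p53 line, so that these distances too were set by the added 0.5 CPM.

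Beside the 10 genes, 22 other known p53 targets were all tested. In Myc_Utx lines 15 were called higher, 68.2% beside 6.99% of all genes, and none lower, beside 7.69% of all genes. Their median log2 fold change was 1.62. The 4 with the largest differences were Ak1, an adenylate kinase, at 4.96 (adjusted p = 0.0121, edgeR), the cell cycle inhibitor Cdkn1a at 4.23 (adjusted p = 0.0156, edgeR), Ccng1 at 3.70 (adjusted p = 0.00511, edgeR) and the RNA-binding protein gene Zmat3 at 2.39 (adjusted p = 0.00723, edgeR). The 7 that were not called were Plk2, Plk3, Sesn1, Pmaip1, Fas, Gdf15 and Triap1. As among the 10 genes, the list therefore held genes that did not pass the test, and several of its members were known from earlier results of the same lines, so its direction is not independent evidence. The number of the 15 still called was 1 without 2A, 6 without 2B, 9 without 2D and 9 without Myc_p53 line 3. In those fits 0.0332%, 0.672%, 0.586% and 1.02% of all genes were called.

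**Figure D4:**
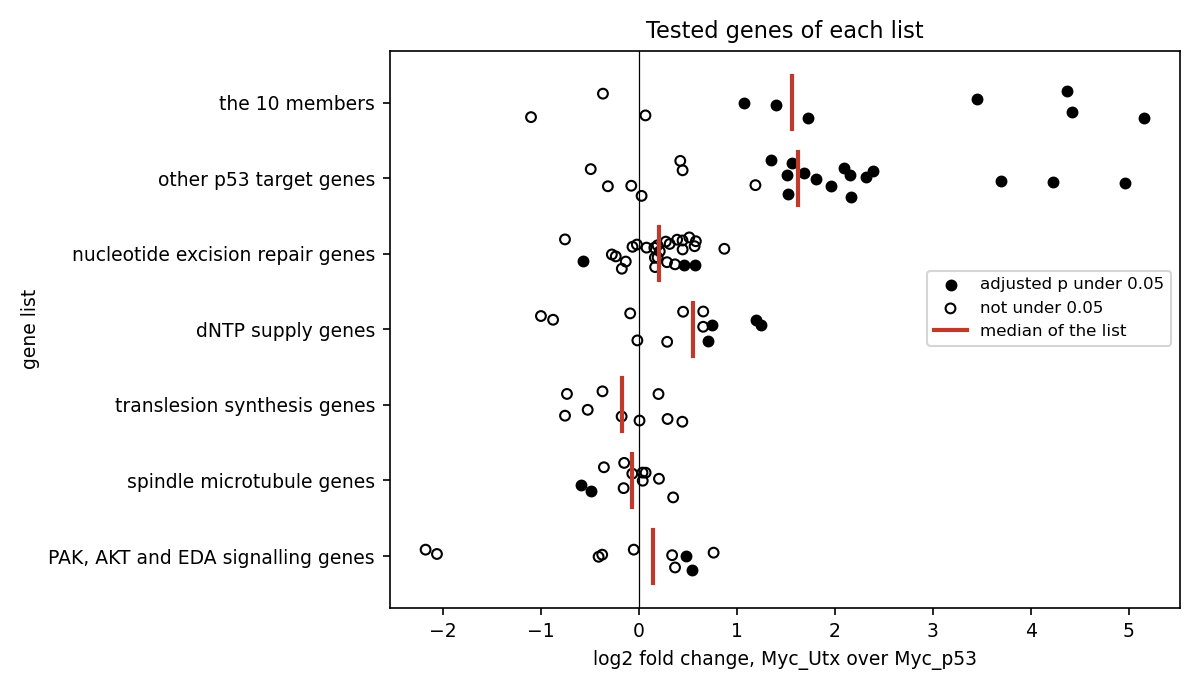
Log2 fold change (Myc_Utx over Myc_p53) of each tested gene of the 10 and of 6 gene lists, with called genes filled, others open, and a red bar at the median of each list; the vertical scatter within a list has no meaning. The 10 genes and the other p53 targets have medians of 1.56 and 1.62, and the medians of the remaining lists lie between -0.18 and 0.55.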

How the data were processed

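The authors deposited raw counts per mouse gene for 6 cell lines, without normalization. The submitters' processing notes name Trimmomatic 0.36, STAR 2.5.3a, featureCounts 1.6.3 and DESeq2 1.20.0 with GRCm38, whereas the study's methods name HTSeq and a human build. Coordinates of 96.1% of genes, and of all 10 members, equal those of GENCODE M21. Lines were grouped by their labels, each line counting as 1 replicate. The edgeR package (4.0.16, in R 4.3.3) filtered genes with filterByExpr (minimum count 10), and counts were scaled with TMM and compared by the quasi-likelihood F test with Benjamini-Hochberg adjustment, on all genes. Genes at 3 counts or fewer throughout a group were taken to be at the floor and given no fold. Profiles used log2 of CPM plus 0.5. On simulated data, 71.2% of 198 genes changed by 2 on the log2 scale were recovered among 11324, and 2.76% of calls were false.

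The genes, the gene lists and the tests were chosen with earlier results of these data known. Named were the 10 genes, the targeted genes, up to 4 called genes of each list in each direction with the largest change, the family members and partners given above, called chromosomal neighbours, and the 3 nearest profiles of Psrc1 and Fam212b. 1 gene of this rule is not reported here. Rev1, Rev3l, Pcna, Pak3, Samhd1, Dguok, the p53 targets that were not called, the marker genes and the neighbours that were not called were named after their values were seen.

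Alternatives were no filter, 10 counts in every line, DESeq2 size factors, total counts only, DESeq2 1.42.0, offsets for length and GC content (MASS 7.3.60.0.1, splines with 5 degrees of freedom) and leaving out each line. Sequences are from RefSeq (GRCm38.p6).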

Additional observations from a re-analysis of the deposited data

How the results depend on the processing

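The depth of 4656103 to 6937497 counts leaves Fam212b with 5 to 9 counts in each Myc_p53 line, and with a minimum of 10 counts in every line neither Fam212b nor Eda2r could be fitted. No paired analysis was made, because each line came from a tumour of a different mouse and the design holds no pairs. Of 118 alternative values for the 10 genes, 100 kept their direction and side of the threshold, 16 kept the direction but not the call, each with 1 line left out, and 2 turned in sign, both for Rrm2b: -0.0013 with total counts only and -0.15 without Myc_p53 line 2, the lowest with 1 line left out, where the highest was 0.28. With total counts only, 37.3% of all called genes were higher in Myc_Utx lines, against 47.6%, with a median log2 fold change of -0.08 over all genes. DESeq2 called 5 nucleotide excision repair, 8 deoxynucleotide supply (2 of them lower), 3 translesion, 3 signalling and 3 neighbour genes. With no filter 1 excision repair, 0 spindle and 1 neighbour gene were called. With 10 counts in every line or total counts only it was 1 translesion and 1 neighbour gene, and with length and GC offsets 1 translesion and 1 spindle gene. Leaving out 1 line gave 1 to 7 of the 10 genes, 1 to 14 other p53 targets, 0 to 2 excision repair, 0 to 6 deoxynucleotide supply, 0 translesion, 0 to 1 spindle, 0 to 3 signalling and 0 to 1 neighbour genes. Over all genes 805 were higher and 885 lower, against 1269 and 1558 with DESeq2.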

Other observations

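Gene ontology terms in the deposited table were read after the values had been seen. Rrm2b, Ddb2, Polk, Ercc5 and Xpc carry the term DNA repair. Of 303 tested genes with that term, 25 (8.25%) were called higher and 15 (4.95%) lower in Myc_Utx lines, beside 6.99% and 7.69% of all genes, with a median log2 fold change of 0.12. Of 417 tested genes with the term apoptotic process, which Phlda3 carries, 45 (10.8%) were called higher and 19 (4.56%) lower. Of 521 tested genes with the term cell cycle, which Psrc1 carries, 29 (5.57%) were called higher and 31 (5.95%) lower.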
